A study of Mus musculus with 37 samples.

Results

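Meiotic maturation of the mouse oocyte was described in the control animals of a study of BAP1, a deubiquitinase that removes the Polycomb mark from histone H2A. The members were 4 control libraries of the series' 37: fully grown oocytes (FGO), replicates 1 and 2, and metaphase II eggs (MII), replicates 1 and 2. All genes of the deposited table were compared between these groups, 15184 of 55401 of them after a filter on low values (at least 1 FPKM in at least 2 of the 26 total RNA libraries). FPKM is a level per kilobase of gene, scaled within a library. Both control groups carried Bap1 flox/flox without iCre. The knockout groups used for comparison carried Gdf9-iCre with Bap1 flox/flox, so that deletion depended on iCre driven by the promoter of an oocyte gene, and had 3 FGO and 3 MII libraries. Control late 1-cell embryos (2 libraries) came from Bap1 flox/flox mothers crossed to B6. The number of oocytes per library, the age and number of the females, and how eggs were collected are not given in the sources used here. Nothing in the labels says that replicates came from separate animals, so p-values measure only a spread between libraries, which may be technical. In the fit of 26 libraries this spread was pooled per gene over all groups, knockouts and early embryos included. It is therefore not the spread of the 4 control libraries alone.

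A fully grown oocyte is held at prophase of the first meiotic division with a transcriptionally silent nucleus and a large store of mRNA. On resumption of meiosis the germinal vesicle breaks down, a polar body is extruded and the egg halts again at metaphase. New transcription is essentially absent over this period, and the known control is on the stored mRNA: some messages lengthen their poly(A) tails and are translated, others lose their tails and are degraded. Cytoplasmic polyadenylation depends on the AAUAAA signal and on U-rich elements bound by CPEB1, and deadenylation on the CCR4-NOT complex with its adaptor BTG4.

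The libraries of each group were close to one another. The typical standard deviation between replicates was 0.088 in FGO and 0.078 in MII on the log2(FPKM + 1) scale, and between 11050 and 11323 genes reached 1 FPKM in each control library. In control embryos, which also enter the pooled spread, it was 0.086 at late 1-cell, 0.218 at early 2-cell and 0.148 at late 2-cell. All 10 oocyte markers of the list were above 1 FPKM in all 4 libraries, with sums of 4086 and 4288 FPKM in FGO and 3049 and 3046 in MII. Of 16 granulosa and cumulus markers, 15 were under 1 FPKM in every library. The exception, Cyp19a1, was at 6.72 and 5.16 in FGO and 4.20 and 5.62 in MII. Without it the list summed to 3.06 and 2.67 FPKM in FGO and 0.746 and 0.766 in MII, and the number of the 16 at 0 was 4 and 5 in FGO and 11 and 9 in MII. Inha (0.687 and 0.946), Hsd17b1 (0.613 and 0.326), Amh, Foxl2, Nr5a1 and Vcan were above 0 in both FGO libraries and at 0 in both MII libraries, and the part of such transcripts in the differences below was not tested. Of 12 stroma and blood markers, Pecam1 alone reached 1 FPKM (16.8 and 13.2 in FGO, 14.7 and 13.4 in MII), and Ptprc and the globins Hbb-bs, Hbb-bt and Hba-a1 were at 0 throughout. Bap1 itself was at 16.3 and 29.2 FPKM in control FGO and 29.9 and 28.5 in control MII (log2 change 0.40 ± 0.19 (SE), adjusted p = 0.63), against 3.76 to 4.98 in knockout FGO and 4.15 to 5.13 in knockout MII.

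Few transcripts were called between FGO and MII in the fit of 26 libraries, and most of those called were lower in the egg. In the control libraries 210 genes (1.38%) changed: 183 fell and 27 rose at an adjusted p under 0.05 (limma over all 26 libraries, Benjamini-Hochberg over the 15184 genes), which is 1.21% and 0.178% of the genes tested. At an unadjusted p under 0.05 the counts were 823 (5.42%) and 356 (2.34%). The genes that fell had a median decrease of 1.09 log2 units; 111 of them fell by at least 1 unit and 19 by at least 2. Their median MII level was 40.3% of the FGO level. Of the 183, 170 were nuclear protein-coding genes, 6 processed pseudogenes, 5 lincRNAs, 1 unprocessed pseudogene and 1 lncRNA of a bidirectional promoter; of the 27, 23 came from the mitochondrial genome (10 protein-coding genes and 13 tRNA genes) and 4 from the nucleus. All of these 210 genes had both MII libraries on one side of both FGO libraries, as had 3609 (23.8%, lower) and 3262 (21.5%, higher) of all genes tested. Leaving out 1 library reduced the counts: 91 fell and 17 rose without FGO replicate 1, 98 and 18 without FGO replicate 2, 75 and 14 without MII replicate 1, and 104 and 17 without MII replicate 2. A fit of the 10 FGO and MII libraries alone, in which the early embryos do not enter the spread, called 432 genes lower (3.6%) and 75 higher (0.624%) of 12016 (4.22% in all), and 179 of the 183 and 23 of the 27 were among them in the same direction.

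**Figure D1:**
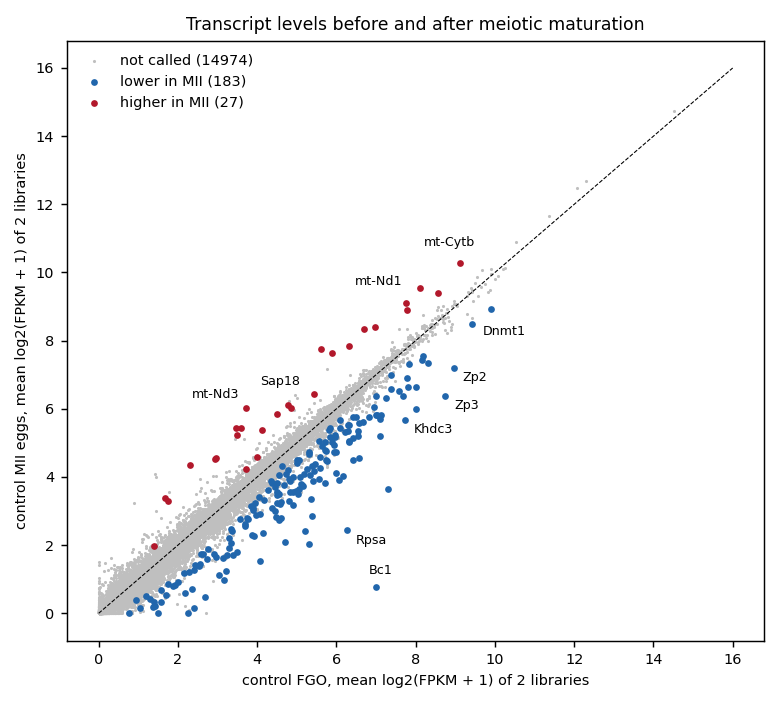
Mean log2(FPKM + 1) of the 2 control MII libraries (vertical axis) against that of the 2 control FGO libraries (horizontal axis), 1 point per gene tested. Most of the 15184 genes lie along the dashed line of equal level; the 183 genes called lower (blue) spread below it, farthest for Bc1 and Rpsa among those labelled, and most of the 27 called higher (red) are mitochondrial.

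FPKM are relative to the rest of the library, so a fall of all mRNA together would not appear, and in bulk samples fewer cells of a type and less RNA per cell cannot be told apart. The sum of FPKM over nuclear protein-coding genes was 254862 and 249158 in FGO and 244767 and 245170 in MII.

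The zona pellucida genes were among the most abundant transcripts that fell. Zp3, which encodes the zona protein that carries sperm-binding activity (chr5:135980099-135988624, GRCm38), was at 387 and 476 FPKM in FGO and at 79.2 and 83.4 in MII, a fall of 2.39 ± 0.20 log2 units (SE, adjusted p = 2.17e-07). Zp2, its partner in the zona filament (chr7:120126772-120145291), was at 448 and 548 in FGO and 142 and 148 in MII, and fell by 1.76 ± 0.16 (adjusted p = 8.85e-07). In both genes each FGO library was above both MII libraries. Astl, the ovastacin protease of cortical granules that cleaves ZP2 after fertilization, was at 75.6 and 78.2 in FGO and 41.2 and 48.2 in MII and fell by 0.77 log2 units (adjusted p = 0.022), a call lost when any 1 of the 4 libraries was left out (adjusted p 0.067 to 0.38). The other 13 of 16 members of the list of zona, secreted and surface proteins did not pass; the fit of the 10 FGO and MII libraries added Fgf8 and Plat. Zp1 had a log2 change of -0.46. The oocyte growth factors did not pass: Gdf9 was at 1096 and 1077 in FGO and 986 and 904 in MII (adjusted p = 1.0), and Bmp15 at 393 and 445 in FGO and 360 and 376 in MII (adjusted p = 0.96). Their log2 changes were -0.20 ± 0.23 and -0.18 ± 0.14 (SE). For both, each FGO library was above both MII libraries, as for 23.8% of all genes. The list's median was -0.14, beside a median of 0.00 over all genes tested, and 18.8% of its members fell, against 1.21% of all genes.

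The 3′ ends of these genes differ. The 30-base windows below are from GENCODE M21 transcripts on GRCm38, in transcript orientation, and end 4 bases after the last AATAAA (the polyadenylation signal), which is in capitals together with any TTTTAT or TTTTAAT, forms of the element bound by CPEB1. They show 4 genes that fell and 5 that were not called, and were chosen after their values were seen.
Zp3, chr5:135988587-135988616, plus strand: ctaccttgtatcccttccgcAATAAAagaa
Zp2, chr7:120132368-120132397, minus strand: aatcactgattggacttgcaAATAAAgaga
Khdc3, chr9:73104401-73104430, plus strand: aacacaatttaaagtattctAATAAAaaaa
Rps27, chr3:90212681-90212710, minus strand: agatgagtgggaaccttcccAATAAAcacg
Cnot7, chr8:40493037-40493066, minus strand: cttaaggtacaTTTTATatcAATAAAaata
Dcp1a, chr14:30527005-30527034, plus strand: gtttgcaaatatatttTTTTAATAAAattt
Gdf9, chr11:53437862-53437891, plus strand: gtggTTTTATgtgacggaagAATAAActgt
Ccnb1, chr13:100778664-100778693, minus strand: tatggagactttatgttgctAATAAAcata
Bmp15, chrX:6314125-6314154, minus strand: gtattttcttaatcttaaagAATAAAtttt
In Zp3 the annotated 3′ UTR is 13 bases long and the signal overlaps the stop codon. Over nuclear protein-coding genes with an annotated transcript, the element was about as frequent in the last 100 bases of genes that fell (18.2%) as of genes not called (18.6%). With 3′ UTRs of at least 200 bases only, the shares were 29.8% and 20.1%. These windows therefore do not stand for the groups. The annotated 3′ UTRs of Zp2, Khdc3 and Rps27 are 49, 246 and 54 bases long. Those of Gdf9, Cnot7, Ccnb1, Bmp15 and Dcp1a, none of which was called, are 360, 951, 1028, 1523 and 3757 bases long.

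Messages known to be stored and then translated during maturation held no call in the fit of 26 libraries, but some in other fits. Of 16 such genes none passed the limma test in either direction, and 5 had an unadjusted p under 0.05, all lower, against 5.42% of all genes; the median log2 change was 0.01. In the fit of the 10 FGO and MII libraries, and in that of the 4 control libraries, 2 were called lower, Mos and Plat. With quantile normalization Plat and Tpx2 were called lower, with a minimum mean of 5 FPKM Plat, and in knockouts Plat and Bub1b. Ccnb1, cyclin B1, was at 181 and 178 FPKM in FGO and 185 and 162 in MII. Btg4, the adaptor of the deadenylase, was at 974 and 946 in FGO and 993 and 993 in MII. Cnot7, a catalytic deadenylase subunit, was at 180 and 198 in FGO and 160 and 164 in MII. Groups overlapped for Ccnb1 and not for Btg4 or Cnot7, and the log2 changes of the 3 genes lay between -0.22 and 0.05. Cnot6l (0.09), another deadenylase subunit, the decapping factor Dcp1a (0.16), the histone mRNA binding protein Slbp (0.10), the APC inhibitor Fbxo43 (0.01) and the CDK1-inhibitory kinase Wee2 (0.20) also did not pass. The lowest values of the list were those of Mos, the kinase that activates MAPK in the oocyte, and Plat, tissue plasminogen activator. Mos was at 79.8 and 77.9 in FGO and 51.2 and 51.4 in MII (log2 change -0.61 ± 0.25 (SE), adjusted p = 0.46). Plat was at 492 and 457 in FGO and 318 and 312 in MII (-0.59 ± 0.16, adjusted p = 0.076). In the fit of the 10 FGO and MII libraries their adjusted p were 0.040 and 0.022. Both had groups that did not overlap, and in control late 1-cell embryos, which share the MII libraries in their comparison, Mos was at 4.75 and 6.46 and Plat at 73.4 and 74.4.

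**Figure D2:**
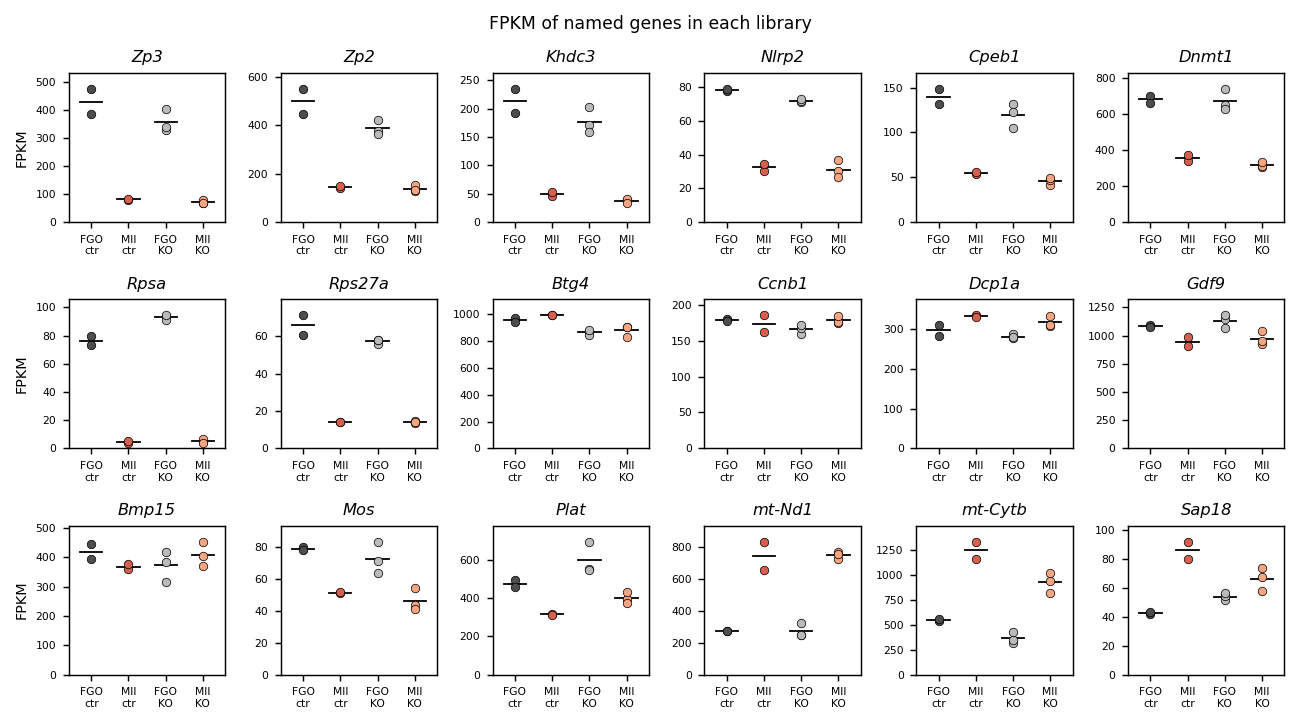
FPKM (vertical axes, from 0) of 18 genes in each library: control (ctr) FGO and MII, 2 libraries each, and knockout (KO) FGO and MII, 3 each; the bar is the group mean. Zp3, Zp2, Khdc3, Nlrp2, Cpeb1, Dnmt1, Rpsa and Rps27a are lower in every MII library than in every FGO library of both genotypes, whereas Btg4, Ccnb1 and Bmp15 lie near one level.

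Among the machinery that degrades and stores mRNA 1 gene was called in the fit of 26 libraries. None of 35 tested genes of deadenylation and decay passed the limma test, and their median log2 change was -0.01. At an unadjusted p under 0.05, 2 were higher and 3 lower, against 2.34% and 5.42% of all genes. In the fit of the 10 FGO and MII libraries 2 of 34 were called lower, Edc4 (-0.38) and Upf1 (-0.34). That fit called 3.6% of all genes lower. Of 24 tested genes of mRNA storage and translational control, 1 fell (4.17%, against 1.21% of all genes). This was Cpeb1 (chr7:81347026-81455465), whose protein binds the cytoplasmic polyadenylation element, at 131 and 148 FPKM in FGO and 53.9 and 56.2 in MII, a fall of 1.33 ± 0.14 log2 units (SE, adjusted p = 6.49e-06). Other RNA-binding proteins of translational control did not pass: Dazl (98.5 and 104 in FGO, 95.8 and 88.6 in MII) and Ybx2 (140 and 152 in FGO, 160 and 167 in MII) had log2 changes of -0.14 and 0.16. None of 35 tested genes of meiotic arrest and resumption passed the limma test (median 0.05). At an unadjusted p under 0.05, 1 was higher and 1 lower, against the same 2.34% and 5.42% of all genes. Mos alone was called in the fit of the 10 FGO and MII libraries. Of 51 genes of the spindle and of chromosome segregation 2 fell (3.92%, against 1.21% of all genes). They were the checkpoint kinase Bub1 (37.4 and 39.6 in FGO, 23.0 and 26.3 in MII, log2 change -0.62, adjusted p = 0.012) and the APC subunit Cdc27 (65.7 and 69.6 in FGO, 53.9 and 47.0 in MII, -0.42, adjusted p = 0.0099). Each of these calls was lost without any 1 of 3 libraries, with adjusted p up to 0.28 for Bub1 (without FGO replicate 1 or 2 or MII replicate 1) and 0.27 for Cdc27 (without FGO replicate 1 or 2 or MII replicate 2).

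The cytoplasmic ribosomal proteins held the most falls of any list. Of 83 tested, 30 fell (36.1%, against 1.21% of all genes) and none rose, with a median of -0.62. The 30 were 13 of 33 small-subunit and 17 of 50 large-subunit genes. The range ran from -3.82 for Rpsa to 0.52 for Rps25. Rpsa (chr9:120127689-120132369), which encodes the laminin receptor protein of the small subunit, was at 79.4 and 73.2 FPKM in FGO and 3.83 and 5.17 in MII, with a log2 change of -3.82 ± 0.18 (SE, adjusted p = 2.03e-11). Rps27, Rps19, Rps13 and Rps27a fell by 2.81, 2.63, 2.54 and 2.14. Other ribosomal proteins were not called: Rplp0, Rps7 and Rps3a1 had log2 changes of -0.05, -0.08 and 0.02. The list as a whole took 2.20% and 2.11% of the nuclear protein-coding FPKM in FGO and 1.32% and 1.43% in MII. Processed copies of ribosomal protein genes are many in the mouse genome. Of the 17 members with under 10% of their 50-base words in another annotated gene 6 fell (median -0.55), and of the 66 with more 24 fell (median -0.63). Without MII replicate 1 the count was 18, and it was 46 of 81 with 1 gene higher, Rps24 (0.35), in the fit of the 4 control libraries.

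Proteasome subunits and the respiratory chain held further falls. Rps27a, named above, encodes ubiquitin fused to a ribosomal protein. Of 36 tested proteasome subunits 2 fell (5.56%, against 1.21% of all genes), Psmb1 (-1.52) and Psmb6 (-1.30), and the median was -0.11. Of 73 nuclear-encoded genes of the respiratory chain and ATP synthase 8 fell and none rose, with a median of -0.24: 6 of 37 of complex I, 2 of 17 of ATP synthase, and none of 9 of complex III or 10 of complex IV. Ndufa11 of complex I had the largest fall, from 38.3 and 41.9 to 7.85 and 10.8 (-2.01 ± 0.45 (SE), adjusted p = 0.022, between 0.088 and 0.31 with any 1 library left out). The count of 8 was between 1 and 3 with a library left out, and 2 with a pseudocount of 0.1. Pet100, an assembly factor of complex IV, was at 16.4 and 15.1 in FGO and 1.85 and 1.98 in MII and fell by 2.52 (adjusted p = 2.65e-05). Mitochondrial ribosomal proteins showed 1 fall among 77, Mrpl39 (-0.96, adjusted p = 0.04997, not passing with any 1 library left out), and the citric acid cycle 1 among 24, Mdh2 (47.2 ± 5.43 FPKM in FGO and 23.0 ± 3.03 in MII, mean ± SD, n = 2; log2 change -1.01). Of 65 translation factors 1 fell, Eef1d (2.01-fold lower). Eif1b (0.48) was called higher in the fit of the 10 FGO and MII libraries and in that of the 4 control libraries. The first of these fits also called the proteasome subunit Psma7 (0.39) and Atp5j2 of ATP synthase (0.45) higher. The shares lower were 4.17% of the citric acid cycle list, 1.30% of mitochondrial ribosomal proteins and 1.54% of translation factors. The last 2 lie near the 1.21% of all genes. Upp1, uridine phosphorylase, fell from 73.2 and 69.3 to 14.3 and 16.4, and Hint3, a nucleotide hydrolase, from 8.21 and 7.59 to 0.554 and 1.47.

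**Figure D3:**
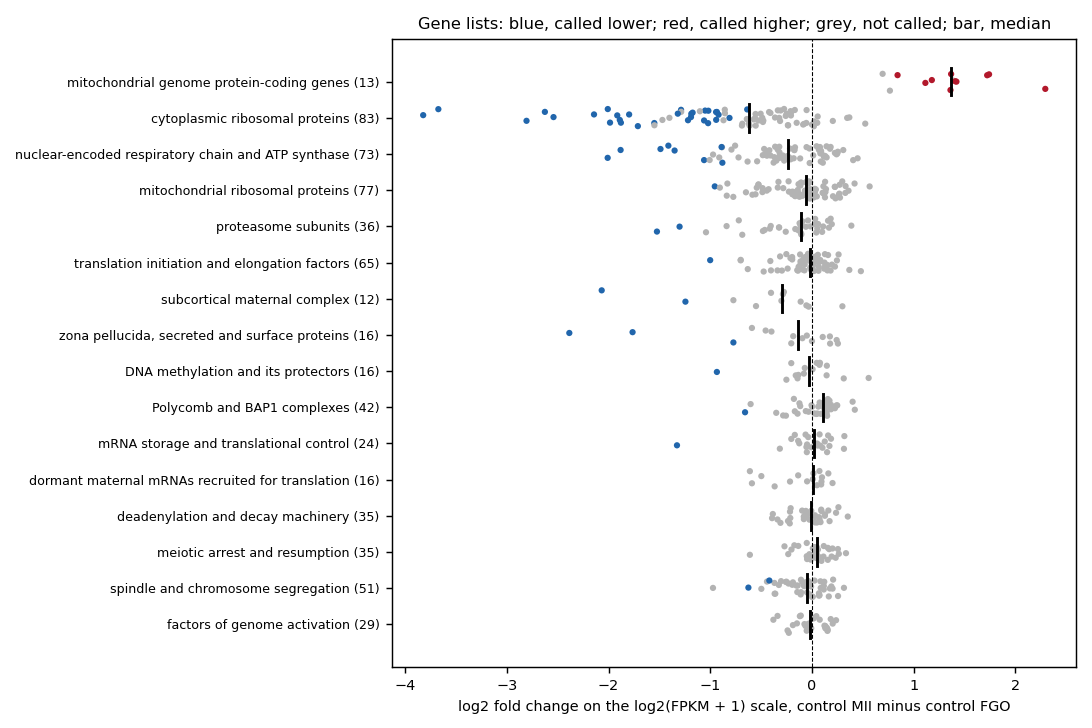
Log2 fold change of each member of 16 gene lists on the log2(FPKM + 1) scale, control MII minus control FGO, with the number of members tested in brackets and the list median as a bar. The 13 mitochondrially encoded genes are all to the right of 0 (median 1.37), the ribosomal proteins reach furthest to the left (median -0.62), and the lists of dormant messages, decay and meiotic control are centred near 0 with no coloured point.

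In the subcortical maternal complex, which the early embryo needs, 2 of 12 genes fell (16.7%, against 1.21% of all genes). Of the 12, 11 had a negative log2 change, as had 8081 of all 15184 genes, and the median was -0.29. At an unadjusted p under 0.05, 6 of them were lower, against 5.42% of all genes. The fit of the 10 FGO and MII libraries called 5 lower, adding Tle6, Nlrp14 and Nlrp9a, against 3.6% of all genes in that fit. The fit of the 4 control libraries called 4, without Nlrp9a. Khdc3 (chr9:73101836-73104438) was at 192 and 234 FPKM in FGO and 46.5 and 53.3 in MII and fell by 2.07 ± 0.23 log2 units (SE, adjusted p = 1.13e-05); 34.1% of its words occur in other annotated genes. Nlrp2 was at 77.7 and 78.6 in FGO and 30.4 and 34.6 in MII and fell by 1.24 (adjusted p = 1.60e-04). Ooep, Tle6, Nlrp5 and Padi6, the other core members, had log2 changes of -0.03, -0.55, -0.40 and -0.29 and did not pass in the fit of 26 libraries. Dnmt1, the maintenance DNA methyltransferase, was at 702 and 665 in FGO and 343 and 372 in MII and fell by 0.93 ± 0.15 (SE, adjusted p = 7.21e-04), as the only call among 16 genes of DNA methylation and its protection in the fit of 26 libraries; Zfp57 (0.31) was called higher as well in the fit of the 10 FGO and MII libraries, and Tet3 in that of the 4 control libraries. Dppa3, which shields maternal methylation, was at 860 and 859 in FGO and 789 and 838 in MII. Tet3, the oxidase of the paternal genome, was at 213 and 226 in FGO and 308 and 341 in MII (log2 change 0.56 ± 0.17 (SE), adjusted p = 0.13). The oocyte linker histone H1f8 was at 1203 and 1161 in FGO and 1122 and 1069 in MII. Of 42 tested Polycomb and BAP1 complex genes 1 fell, the O-GlcNAc transferase Ogt (15.8 and 21.5 in FGO, 10.8 and 11.8 in MII, -0.66, adjusted p = 0.034, and between 0.14 and 0.62 without FGO replicate 2, MII replicate 1 or MII replicate 2). Of 15 genes of the m6A pathway 1 fell, the writer subunit Zc3h13 (-0.73, adjusted p = 1.36e-03, 0.055 without FGO replicate 1). None of 29 factors of genome activation, 14 oocyte transcription factors or 20 genes of small RNA pathways passed the limma test. Nor did any of 66 replication-dependent histone genes, 11 long non-coding RNAs or 166 small nucleolar RNAs. At an unadjusted p under 0.05 these lists held 2, 1, 1, 6, 4 and 2 genes, in that order. Over all genes tested, 2.34% were higher and 5.42% lower at that threshold. In the fit of the 10 FGO and MII libraries the transcription factor Sohlh2 was called higher (0.59) and the histone genes H2ac1, H2ac15 and H2bc1 lower (-0.63, -0.75 and -0.71). In the fit of 26 libraries the genes lower made up 6.25% of the DNA methylation list, 2.38% of the Polycomb list and 6.67% of the m6A list.

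The transcripts that rose in controls in the fit of 26 libraries were almost all mitochondrial. This does not hold for the 75 genes called higher in the fit of the 10 FGO and MII libraries. Nor does it hold for the 133 that rose in knockouts, since the mitochondrial genome has only 37 tested genes. Of the 13 protein-coding genes of the mitochondrial genome 10 rose (76.9%, against 0.178% of all genes) and none fell, with a median of 1.37 and a range from 0.70 to 2.29. They encode core subunits of the respiratory chain and ATP synthase. mt-Nd1, of complex I, was at 276 and 275 FPKM in FGO and 835 and 656 in MII (log2 change 1.42 ± 0.16 (SE), adjusted p = 1.13e-05). mt-Cytb, of complex III, was at 540 and 561 in FGO and 1336 and 1165 in MII (1.18 ± 0.18, adjusted p = 4.44e-04). mt-Nd2 was at 206 and 223 in FGO and 602 and 509 in MII, and mt-Nd5 at 222 and 215 in FGO and 506 and 445 in MII. For all 13 genes both MII libraries were above both FGO libraries, as for 21.5% of all genes tested. mt-Atp6, mt-Co3 and mt-Nd6 did not pass (adjusted p 0.10, 0.56 and 0.12). The 13 together made up 0.663% and 0.710% of the FPKM sum in FGO and 1.66% and 1.45% in MII. Of the 22 mitochondrial tRNA genes 13 rose and none fell, with a median of 1.54. These genes are short and some abut a protein-coding gene, such as mt-Tm (chrM:3845-3913) and mt-Nd2 (chrM:3914-4951). Whether their reads came from mature tRNAs or from longer transcripts was not tested. The ribosomal RNAs of the mitochondrion, mt-Rnr1 (4864 and 5165 in FGO, 6949 and 6110 in MII) and mt-Rnr2 (4173 and 4496 in FGO, 5770 and 5744 in MII), had log2 changes of 0.38 and 0.41 and did not pass (adjusted p 0.49 and 0.14).

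Copies of mitochondrial DNA in the nuclear genome limit some of these values. For 7 of the 13 genes at least 10% of the 50-base words of the gene occur in another annotated gene, from 51.1% for mt-Co1 to 100% for mt-Co2, and 5 of these 7 rose (median 1.39). Of the 6 with under 10% of shared words, mt-Nd1, mt-Nd2, mt-Nd5, mt-Cytb, mt-Atp8 and mt-Nd6, 5 rose (median 1.27). mt-Nd3 had the largest rise of the 27 genes (9.08 and 16.1 in FGO, 63.1 and 63.7 in MII, 2.29) and shares 98.0% of its words. The calls of mt-Atp8 and mt-Co2 were lost when any 1 library was left out (adjusted p 0.071 to 0.17 and 0.13 to 0.20), and that of mt-Co1 without FGO replicate 1 or MII replicate 1 (up to 0.11).

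From the nucleus 4 genes rose in the fit of 26 libraries, and each by 1 log2 unit or less. Sap18, a subunit of the Sin3 histone deacetylase complex and of a splicing complex, was at 42.1 and 42.9 FPKM in FGO and 91.8 and 79.9 in MII (log2 change 1.00 ± 0.24 (SE), adjusted p = 0.043). Fkbp1a, the prolyl isomerase that binds FK506, rose by 0.58, Dda1, a subunit of a cullin ubiquitin ligase, by 0.52, and the lincRNA Gm42931 by 0.60. None of the 4 calls held in all fits with 1 library left out: that of Sap18 and of Dda1 was lost without any 1 library (adjusted p 0.15 to 0.46 and 0.13 to 0.33), that of Fkbp1a without FGO replicate 1, MII replicate 1 or MII replicate 2 (up to 0.42), and that of Gm42931 without FGO replicate 2, MII replicate 1 or MII replicate 2 (up to 0.47).

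The knockout oocytes gave the same contrast in 6 libraries of their own. There 403 genes fell (2.65%) and 133 rose (0.876%), 3.53% in all. Of the 183 genes that fell in controls, 182 had the same sign in knockouts, 156 were called lower there and 178 had knockout MII libraries all below the knockout FGO libraries, as had 13.5% of all genes; the median change was -1.06 in knockouts and -1.09 in controls. Zp3 was at 329, 406 and 340 FPKM in knockout FGO and 67.6, 77.9 and 69.4 in knockout MII, and Cpeb1 at 105, 132 and 123 and at 41.7, 47.3 and 49.6. Rpsa lay between 90.8 and 94.3 in knockout FGO and between 4.09 and 6.45 in knockout MII. In the knockouts 42 of the 83 ribosomal proteins and 15 of the 73 respiratory chain genes fell, and 8 of the 13 mitochondrially encoded genes rose. Of the 27 genes that rose in controls, 26 had the same sign in knockouts and 20 were called. The 7 not called were mt-Atp8, mt-Co2, mt-Nd4l and the 4 nuclear genes, of which Sap18 was at 51.2, 54.4 and 56.0 in knockout FGO and 73.6, 67.4 and 57.7 in knockout MII. Knockout FGO replicate 1 stood apart at some mitochondrial genes. In replicates 1, 2 and 3 of knockout FGO, mt-Co2 was at 45.1, 22.9 and 21.5 and mt-Tk at 169, 10.5 and 4.74. At mt-Cytb (321, 349 and 423) it did not. This library also enters the pooled spread, and its part in these calls was not tested.

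**Figure D4:**
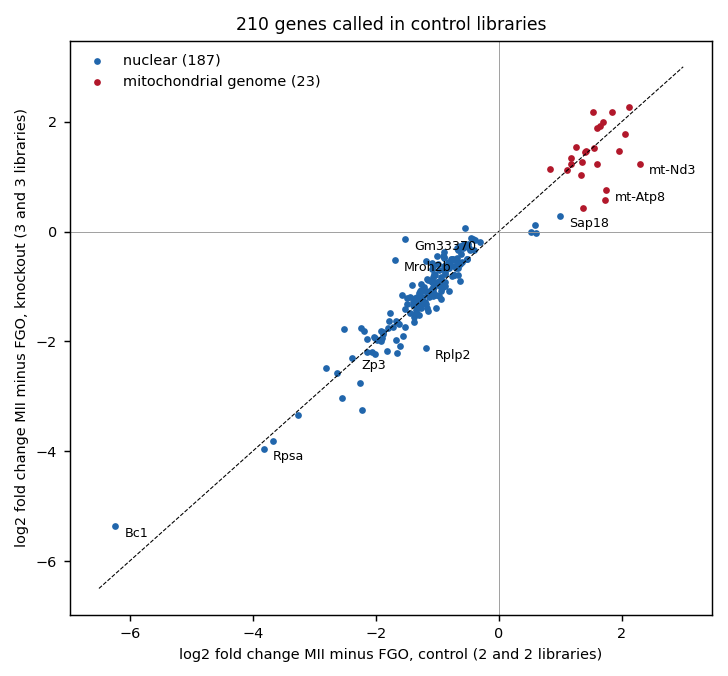
Log2 fold change of MII minus FGO for the 210 genes called in control libraries, in controls (horizontal axis, 2 and 2 libraries) and in knockouts (vertical axis, 3 and 3 libraries), on the log2(FPKM + 1) scale, with the line of equality dashed. The points of 182 of 183 genes that fell lie below 0 on the vertical axis, and mt-Nd3, mt-Atp8 and Sap18 lie below the dashed line, differences that did not pass the test.

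No difference between the maturation change of knockouts and controls passed. By the interaction term of limma 0 of 15184 genes were called (smallest adjusted p 0.79), and 588 had an unadjusted p under 0.05. With no filter on low values 19 genes were called. Among the 210 genes called in controls, 20 (12 that fell and 8 that rose) had an unadjusted p under 0.05. That does not show that the others changed alike. The 210 were picked by the control change, which is also part of this difference, and the choice favours smaller changes in knockouts. Their unadjusted p-values therefore cannot decide whether the genotypes differ. For Sap18 the difference, knockout minus control, was -0.71 (unadjusted p = 0.036), for Gm42931 -0.63 (0.0012) and for mt-Nd4l -1.15 (0.0059), each with an adjusted p of 1.0. Gm42931 was at 0 to 0.0524 FPKM in all 6 knockout libraries.

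Genes that fell had shorter 3′ UTRs than genes that did not. Over nuclear protein-coding genes with an annotated transcript (the one with the longest coding sequence in GENCODE M21), the 170 genes that fell had a median 3′ UTR of 261.5 bases and a median coding sequence of 1104 bases, and the 11457 not called had medians of 886 and 1404 bases. A 3′ UTR of at most 100 bases was found in 36.5% of the genes that fell, 7.51% of those not called and 7.93% of all. By length class, 34 of 490 genes with 0 to 50 bases fell (6.94%), 28 of 432 with 51 to 100 (6.48%), 14 of 933 in the next class, up to 200 bases, and 18 of 2652 in the longest class (0.679%). The median level of a class lay between 4.02 and 7.01 FPKM over the 4 libraries, and among genes of at least 10 FPKM 25 of 179, 25 of 184, 10 of 388 and 10 of 968 genes of these classes fell. Without the ribosomal and respiratory chain lists, 132 genes that fell had a median of 380 bases, against 897 for the genes not called. These medians are descriptions with no test, and genes of 1 family share sequence.

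**Figure D5:**
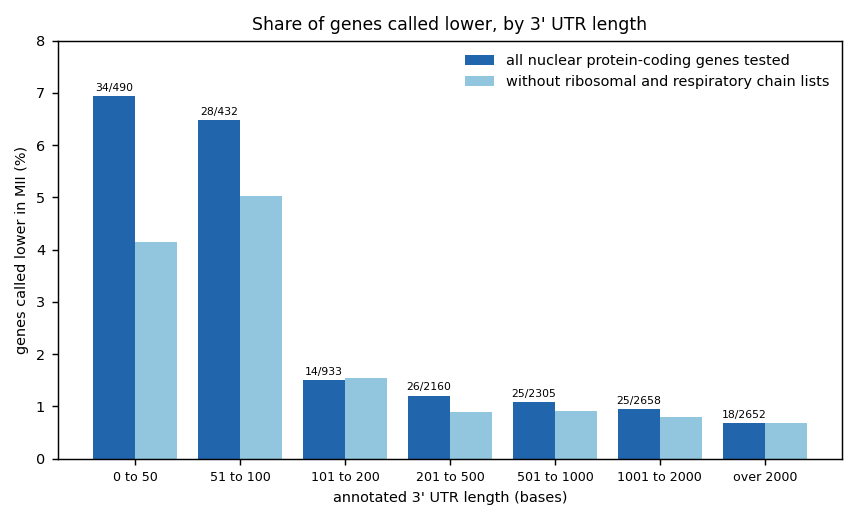
Share of nuclear protein-coding genes called lower in control MII (vertical axis, %) by annotated 3′ UTR length in bases (horizontal axis), for all genes tested (dark; genes called over genes in the class above each bar) and without the ribosomal and respiratory chain lists (light). The classes up to 100 bases stand at 6.94% and 6.48% in the dark bars, and the longest class at 0.679%.

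Words of known regulatory elements were counted in the 3′ UTRs, as a description with no test. Words were searched on the transcript strand alone. TTTTAT or TTTTAAT, which can overlap AATAAA, was in the last 100 bases of the 3′ UTR in 18.2% of the genes that fell, 18.6% of those not called and 18.6% of all 11630. Anywhere in the 3′ UTR it was found in 37.6%, 57.8% and 57.5%. Restricted to 3′ UTRs of at least 200 bases, the shares in the last 100 bases were 29.8% of 94 genes that fell and 20.1% of 9688 not called. ATTTA, the core of AU-rich elements, was anywhere in 42.9% and 64.4%, and the Pumilio word TGTANATA in 13.5% and 23.7%. AATAAA was in the last 40 bases in 61.2% and 59.5%. With 3′ UTRs of at least 200 bases the shares with ATTTA were 67.0% and 73.3% and those with TGTANATA 24.5% and 27.3%.

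Most genes that fell were lower still after fertilization. Control late 1-cell embryos share their comparison with the MII libraries, so values are given side by side without a test of overlap. Between MII and late 1-cell embryos 1173 of all genes tested were called lower (7.73%) and 485 higher (3.19%), 10.9% in all. Of the 183 genes 162 had a negative change in that comparison, 98 were called lower and 1 higher, and of the 27 genes 8 were called higher and 1 lower. The median level of the 183 genes was 40.3% of the FGO level in MII and 20.1% in late 1-cell embryos, and that of the 27 genes that rose was 270% and 421%. In late 1-cell embryos Zp3 was at 26.5 and 26.2 FPKM, Khdc3 at 25.5 and 22.8 and Cpeb1 at 43.2 and 45.4. Gdf9, not called between FGO and MII, was at 178 and 202 in late 1-cell embryos, and Btg4 at 1251 and 1283. mt-Cytb was at 2676 and 2768 and mt-Nd1 at 1419 and 1371, above every MII library, while Sap18 was at 39.4 and 39.4, below the FGO libraries.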

How the data were processed

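The deposited values are FPKM, 1 column per library, made by the authors; the headers end in rpkm. The submitters' processing notes name Trim Galore 0.6.6, STAR 2.7.9, StringTie 2.1.7 and mm10, with no role given; the annotation and filters are not given in the sources used here. Per the labels' protocols the libraries were of total RNA, made with the SMART-Seq Stranded kit. No source used here says if reads were assigned by strand, which leaves overlapping genes, antisense genes and near copies uncertain. The depth is unknown, and the number of libraries limits the precision. Groups and replicate numbers came from the sample titles. Levels were analysed as log2(FPKM + 1), which understates changes of low genes, after the low-value filter given above. The 26 total RNA libraries were fitted together with limma 3.58.1 (R 4.3.3; group means, eBayes with an intensity trend, Benjamini-Hochberg adjustment, threshold 0.05). The scripts were tested on simulated data. Of the table's 55401 genes, 55141 are in GENCODE M21, which gave positions, transcripts and shared 50-base words. Genes named were the 12 strongest rises and 12 strongest falls (adjusted p under 0.05, groups not overlapping, group mean reaching 5 FPKM, protein-coding, no predicted models), the extreme called member of each list, genes of counts of 5 or fewer, and a set of well-known oocyte genes; some genes that this rule names are not reported here. Bc1, mt-Atp6, mt-Co3, mt-Nd6 and the mitochondrial rRNAs, and further members given only a log2 change, were added after their values were seen. The members and lists were chosen with earlier results of these data known. Alternatives are given in the closing section. Tables and plots were made in Python 3.11.15 (pandas 2.3.3, matplotlib 3.10.9).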

Additional observations from a re-analysis of the deposited data

How the results depend on the processing

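The library set moved the counts most. In place of 210 genes (27 higher, 183 lower), 507 (75 and 432) passed with the 10 FGO and MII libraries only and 483 (93 and 390) with the 4 control libraries only, and 133 (111 lower) also changed at least 2-fold. With no filter on low values 47 were higher. With 1 control library left out between 89 and 121 passed, 14 to 18 higher and 75 to 104 lower. Under a pseudocount of 0.1, TPM scaling, a minimum mean of 5 FPKM, scaling on nuclear protein-coding genes, median centring, quantile normalization and no intensity trend the total stayed within 1.5 times. The fit with a replicate block called 196 genes; same-numbered control libraries share only a number (correlation of their deviations across genes 0.023). The ribosomal proteins that fell numbered 18 to 23 of 83 with 1 library left out, 43 of 82 with the 10 FGO and MII libraries only and 46 of 81 with the 4 control libraries only, the latter fits each with 1 gene higher. In these 2 fits, in that order, the counts of genes lower also rose for proteasome subunits (2 to 6 and 7), mitochondrial ribosomal proteins (1 to 6 and 8), translation factors (1 to 4 and 5), the citric acid cycle (1 to 3 and 3), the subcortical maternal complex (2 to 5 and 4), zona and secreted proteins (3 to 5 and 5), m6A (1 to 2 and 2) and histones (0 to 3 and 4); for the spindle list they were 5 and 2, and 2 with all 26 libraries. The fit of the 4 control libraries called 3 small nucleolar RNAs higher (Gm22154, Gm24044 and Snord22). Ogt was not called with a pseudocount of 0.1, no filter, TPM scaling, scaling on nuclear protein-coding genes or the 4 control libraries only. The respiratory chain genes that fell numbered 15 with the 10 FGO and MII libraries only, 5 with TPM scaling, 4 with no filter, 2 with a pseudocount of 0.1, and 1 to 3 with 1 library left out; the mitochondrially encoded genes that rose numbered 7 to 8 with 1 library left out. In knockouts, 536 genes passed, 1315 with the 10 FGO and MII libraries only and 225 at least 2-fold. The interaction gave 0 calls except with no filter (19). The share of genes with TTTTAT or TTTTAAT was 37.6% (lower) and 57.8% (not called) anywhere in the 3′ UTR, and 29.8% and 20.1% for 3′ UTRs of at least 200 bases only, where the median 3′ UTR of genes that fell was 907.5 bases; with APPRIS principal transcripts (chosen after seeing the data) the median was 264 bases, and without the ribosomal and respiratory lists (also chosen after) 380. Of 42 called genes among those named, 27 kept the call in every alternative other than the 2-fold limit, and none of 65 named genes reversed. Rps27 lost its call only with a pseudocount of 0.1 (adjusted p = 0.11). Where calls were lost, the cause was not tested. With 1 library left out, the lone library of its group is assumed to vary like the other groups.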

Other observations

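The largest fall in the table was that of a non-coding RNA outside every list. Bc1, a small cytoplasmic RNA made by RNA polymerase III (chr7:144914470-144914637), was at 77.8 and 209 FPKM in control FGO and 0.987 and 0.466 in control MII (log2 change -6.24 ± 0.70 (SE), adjusted p = 1.34e-05), at 76.9, 82.6 and 85.9 in knockout FGO and 1.64, 1.03 and 0.494 in knockout MII. The control FGO libraries differed from each other, both lay above every MII library, and 31.1% of its 50-base words occur in other annotated genes.

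F-box genes of the Fbxw cluster on chromosome 9, which are expressed in oocytes, moved in part. The family was picked after its values were seen, and its members share sequence. Of 13 genes tested, 6 fell (Fbxw13, Fbxw15, Fbxw16, Fbxw18, Fbxw19 and Fbxw21) and none rose, with a median of -0.49, beside 1.21% of all genes lower and a median of 0.00. Fbxw19 was at 206 ± 6.63 FPKM in FGO and 82.6 ± 5.91 in MII (mean ± SD, n = 2; log2 change -1.31, adjusted p = 9.24e-06), whereas Fbxw28 was at 343 and 338 in FGO and 266 and 308 in MII (-0.25, adjusted p = 1.0). Among 7 tested genes of alpha tubulins and Tubal3, also picked after their values were seen, Tuba3a (92.5 ± 3.14 FPKM in FGO and 36.0 ± 2.74 in MII, mean ± SD, n = 2, adjusted p = 2.79e-05), Tuba3b and Tuba1b fell, and the median over the 7 was -0.95; between 29.5% and 66.7% of their words occur in other annotated genes.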
